A study of Mus musculus with 4 samples.

Results

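The genes described here are 8 mRNA deadenylases of the mouse testis, *Cnot6*, *Cnot6l*, *Cnot7*, *Cnot8*, *Angel1*, *Angel2*, *Ccrn4l* (Nocturnin) and *Parn*. They were chosen by name from the 12415 gene exon sense features of the deposited count table, and all 8 are listed there. *Nef-sp* encodes a testis-enriched 3′ to 5′ exoribonuclease, and the study compared testis transcriptomes with and without it. Testes of adult males at postnatal day 60 on the C57Bl/6J background were sequenced as total RNA, with 2 libraries from *Nef-sp* -/- and 2 from *Nef-sp* +/- mice. All animals carried the 23 bp out-of-frame deletion made with Cas9 nickase, on both alleles in *Nef-sp* -/- and on 1 allele in the control *Nef-sp* +/-, so no library is from an animal without it. The labels do not say that replicates are separate animals, and the p-values measure only the spread between these libraries.

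Deadenylases remove the poly(A) tail from the 3′ end of mRNA, which commonly starts its decay or silences its translation. They fall into a pair of enzyme families. *Cnot7*, *Cnot8* and *Parn* encode nucleases of the DEDD family, to which NEF-sp also belongs, while *Cnot6*, *Cnot6l*, *Angel1*, *Angel2* and *Ccrn4l* encode members of the exonuclease-endonuclease-phosphatase family. The CCR4-NOT complex carries 1 nuclease of each family, CNOT7 or CNOT8 together with CNOT6 or CNOT6L. Tail length is a major means of control in spermatids, which store mRNAs for translation after transcription has stopped, and male mice without *Cnot7* are known to be sterile.

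Gene exon sense reads numbered between 15815159 and 26618821 per library, with *Nef-sp* +/- replicate 2 the deepest. As a check of the labels, *Nef-sp* (2610020H08Rik) exon sense reads came to 1843 and 1693 normalized counts in the controls against 407 and 497 in the knockout. Normalized counts are counts scaled to the mean effective library size. All 6 markers each of spermatocytes, round spermatids and elongating spermatids had at least 10 reads in every library, as did 7 of 7 Leydig cell markers, 6 of 7 listed Sertoli cell markers and 3 of 6 spermatogonial markers, while the epididymal marker *Crisp1* was at 0 in 3 of the 4 libraries. The summed germ cell, Sertoli cell and macrophage markers overlapped between genotypes. All 6 elongating spermatid markers had a log2 fold change above 0 (0.10 to 0.18, median 0.15, none called), and *Tnp1* and *Tnp2* were higher in both *Nef-sp* -/- libraries. The 6 markers summed to 420543 and 512656 normalized counts in the controls, against 521973 and 505096 in *Nef-sp* -/-. Only *Nef-sp* +/- replicate 1 was thus low, and *Nef-sp* +/- replicate 2 lay within the *Nef-sp* -/- range. Of the 6 round spermatid markers, 5 were below 0 (median -0.06, none called), and *Catsper3* and *Catsper4* were lower in both *Nef-sp* -/- libraries. Of all exon sense features tested, 34.5% did not overlap between genotypes. The summed Leydig cell markers were lower in both *Nef-sp* -/- libraries (16105 to 18533 normalized counts, against 19396 to 19577), although 5 of the 7 genes had a log2 fold change above 0 and the sum rests on *Cyp17a1* and *Cyp11a1*, and so were those of peritubular myoid cells (1236 to 1361, against 1388 to 1426), where 1 of the 4 markers tested, *Acta2*, did not overlap between genotypes. The summed blood markers *Hbb-b1* and *Alas2* were higher (241 to 254, against 213 to 232), by *Alas2* alone, since *Hbb-b1* overlapped. In RNA of whole testes, fewer cells of a type and less RNA per cell cannot be told apart.

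The genes come in related pairs, and the reads were 50 bases long and had to match the genome perfectly, so the coding sequences were compared first. The stretch of 60 bases in which the coding sequences of each pair were most alike is printed here 5′ to 3′ and with the bases that differ between partners in capitals, because it shows how far reads can tell partners apart. The transcripts are those of GENCODE vM1 on mm9, and positions count from the first base of the start codon. In *Cnot6l* (ENSMUST00000113005) and *Cnot6* (ENSMUST00000145353) the stretch runs from position 814 to 873 in both, and 7 bases differ.

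Cnot6l: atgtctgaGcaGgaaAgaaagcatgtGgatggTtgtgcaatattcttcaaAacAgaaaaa

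Cnot6: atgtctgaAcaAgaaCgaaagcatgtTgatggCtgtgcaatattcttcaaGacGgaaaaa

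In *Cnot7* (ENSMUST00000034012) and *Cnot8* (ENSMUST00000020822) it runs from position 430 to 489 in both, and 8 bases differ.

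Cnot7: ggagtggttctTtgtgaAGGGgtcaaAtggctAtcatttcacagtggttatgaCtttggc

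Cnot8: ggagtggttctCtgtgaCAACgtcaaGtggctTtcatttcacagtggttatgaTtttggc

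In *Angel1* (ENSMUST00000021682, positions 1254 to 1313) and *Angel2* (ENSMUST00000066632, positions 1017 to 1076) 14 bases differ.

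Angel1: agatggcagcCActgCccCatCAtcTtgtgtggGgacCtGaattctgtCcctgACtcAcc

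Angel2: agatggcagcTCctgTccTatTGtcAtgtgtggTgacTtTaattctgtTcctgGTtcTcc

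Over the aligned coding sequence, identity was 73.7% for *Cnot6l* and *Cnot6*, 72.4% for *Cnot7* and *Cnot8*, and 64.2% for *Angel1* and *Angel2*. The longest run shared by partners was 20 bases in the first and the second pair and 11 bases in the third, shorter than a read, so that no read within the coding sequence could match both partners perfectly. Matches elsewhere in the genome were a separate matter. Of the 582 stretches of 50 bases within coding exons of *Cnot8*, 129 (22.2%) also occurred at chr8:74228104-74228585 of mm9, where no gene is annotated. For *Ccrn4l*, none of the 1140 coding stretches had another match, but 48.6% of all its annotated exonic stretches did, and its exon reads are the least certain of the 8 genes. The share over all exons was 7.50% for *Cnot8* and at most 1.14% for each of the other six. How reads with several matches were assigned is not given in the sources used here.

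Levels were compared between genes as RPKM, here the exon sense reads relative to the annotated exon length in kilobases and to the library's effective size (mm9, GENCODE vM1). *Angel1*, on the minus strand of chromosome 12 (88041452 to 88067410), had the highest level, between 50.9 and 54.6 RPKM in the 4 libraries. ANGEL1 is known as a partner of the cap-binding protein eIF4E. *Cnot7*, on the minus strand of chromosome 8 (41577894 to 41601201), followed with 17.8 to 19.2, a mean level 2.88 times lower than that of *Angel1*. *Angel2*, on the plus strand of chromosome 1 (192748991 to 192770841), reached 7.61 to 8.42. *Parn* (minus strand of chromosome 16, 13538057 to 13668263), *Cnot6* (minus strand of chromosome 11, 49485005 to 49526225) and *Cnot8* (plus strand of chromosome 11, 57917655 to 57932096) came next, with 6.26 to 7.31, 5.98 to 6.48 and 5.56 to 6.31. The ranges of *Parn* and *Cnot6*, and of *Cnot6* and *Cnot8*, overlapped, so these neighbors did not differ beyond the spread over libraries. *Cnot6l*, on the minus strand of chromosome 5 (96499352 to 96593190), had 1.89 to 2.32 RPKM. *Ccrn4l*, on the plus strand of chromosome 3 (51028369 to 51055566), was lowest with 0.429 to 0.620. The same exon sense reads were also divided by the length of coding sequence, chosen after seeing the data. *Cnot7* (121 to 131) and *Angel1* (114 to 122) then overlapped, and *Cnot7* had the higher mean. *Parn* (9.70 to 11.3) then fell below *Cnot6l* (11.7 to 14.4). Reads within coding sequence alone were not counted. Per length of the longest annotated transcript, the means were 7.30 for *Cnot8*, 7.24 for *Cnot6* and 6.70 for *Parn*. The order of these genes thus depends on the length used.

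**Figure D1:**
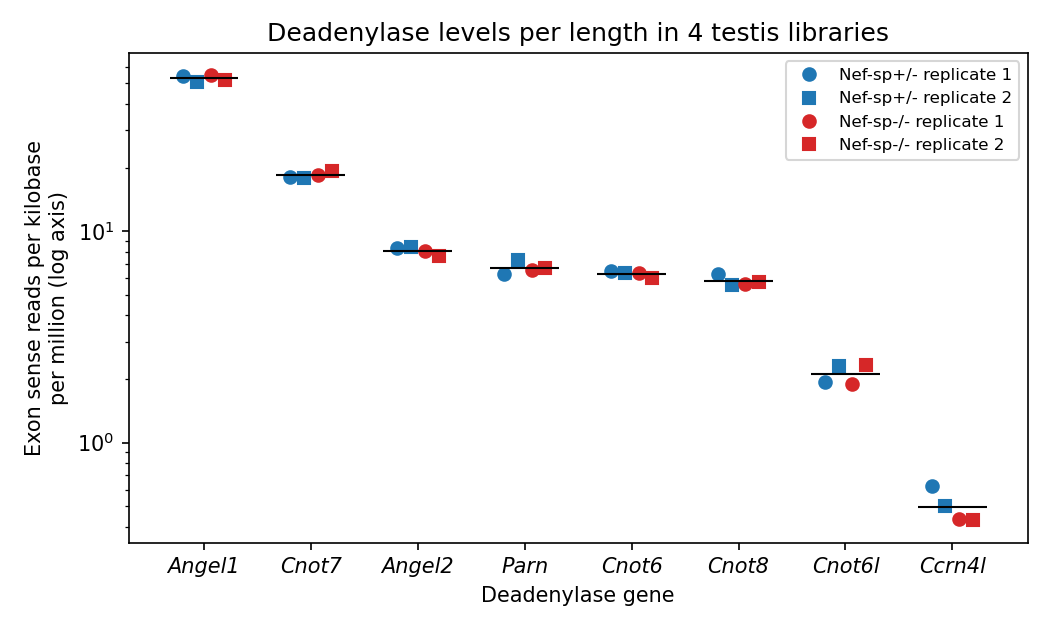
Exon sense level in RPKM (log axis) for the 8 deadenylase genes; points are single libraries, blue for Nef-sp+/- and red for Nef-sp-/-, and the bar is the mean of the 4 libraries. *Angel1* lies at 50.9 to 54.6 and *Ccrn4l* at 0.429 to 0.620, and for most genes the genotypes lie close together.

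Of the reads of all 8 genes together, *Angel1* took 46.9% to 49.1% and *Cnot7* 21.1% to 22.8% in the 4 libraries, as normalized counts not corrected for length. The sum over the 8 genes was 498 and 485 CPM (counts scaled to library size) in the controls, against 496 and 489.5 in *Nef-sp* -/-, and these overlapped. The 4 nucleases of the CCR4-NOT complex summed to 185 and 184 CPM in the controls, against 184 and 190.4 in *Nef-sp* -/-.

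None of the 8 genes was called different between *Nef-sp* -/- and *Nef-sp* +/- at an adjusted p of 0.05 (edgeR's quasi-likelihood test, adjusted by Benjamini-Hochberg over the 10728 exon sense features tested), where 0.00932% of all features tested were called. In this fit 0 of the 8 genes had an unadjusted p below 0.05, where 515 of the 10728 features tested had one. By DESeq2 it was also 0 of 8. All 8 passed the expression filter. In 2 genes the log2 fold change was above 0 and in 6 below, with a median of -0.05 against a median of -0.00022 over all features tested. The median size of the log2 fold change was 0.05 for these genes and 0.07 for all features. The genotypes did not overlap in 4 of the 8 genes (3 lower and 1 higher in *Nef-sp* -/-), where 34.5% of all features did not overlap, 18.1% with *Nef-sp* -/- lower and 16.4% with it higher.

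Among the DEDD nucleases, *Cnot7* had 1962 and 1929 normalized counts in the controls, against 1999 and 2083 in *Nef-sp* -/-. Both *Nef-sp* -/- libraries were above both controls, but by little, as the log2 fold change was 0.07 (standard error 0.0598, 95% interval -0.06 to 0.20, adjusted p = 0.956). The interval corresponds to 0.957 to 1.15 times the control level. *Cnot8* had 309.6 and 273 normalized counts in the controls, against 277 and 282 in *Nef-sp* -/-. The control values enclosed those of *Nef-sp* -/-, with a log2 fold change of -0.05 (standard error 0.100, 95% interval -0.27 to 0.17, adjusted p = 0.976). *Parn* encodes a poly(A)-specific ribonuclease that also trims the 3′ ends of small nucleolar RNAs and of telomerase RNA. Its normalized counts were 338 and 395 in the controls, against 353 and 362 in *Nef-sp* -/-. Here too the controls enclosed the *Nef-sp* -/- libraries, with a log2 fold change of -0.05 (standard error 0.0970, 95% interval -0.26 to 0.16, adjusted p = 0.974).

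Of the CCR4-type nucleases, *Cnot6* had 798 and 780.2 normalized counts in the controls, against 778 and 736 in *Nef-sp* -/-. Both *Nef-sp* -/- libraries were lower, 1 of them only just, and the log2 fold change was -0.06 (standard error 0.0691, 95% interval -0.21 to 0.09, adjusted p = 0.956). *Cnot6l* had 372 and 442 in the controls, against 364 and 446 in *Nef-sp* -/-. Replicates of the same genotype were further apart than the genotypes, whose log2 fold change was -0.02 (standard error 0.115, 95% interval -0.28 to 0.23, adjusted p = 0.990).

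The *Angel* genes encode relatives of the CCR4-type nucleases, and ANGEL2 is known to remove cyclic phosphates from RNA ends. *Angel1* had 4513 and 4234 normalized counts in the controls, against 4542 and 4332 in *Nef-sp* -/-. The genotypes overlapped, with a log2 fold change of 0.02 (standard error 0.0615, 95% interval -0.11 to 0.16, adjusted p = 0.986). The interval corresponds to 0.924 to 1.12 times the control level. *Angel2* had 863 and 877 in the controls, against 842 and 793 in *Nef-sp* -/-. Both *Nef-sp* -/- libraries were below both controls, with a log2 fold change of -0.09 (standard error 0.0682, 95% interval -0.24 to 0.06, adjusted p = 0.954).

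*Ccrn4l* encodes Nocturnin, a rhythmically expressed enzyme named as a deadenylase and later shown to act on NADPH. It had 123 and 99.995 normalized counts in the controls, against 86.6 and 85.2 in *Nef-sp* -/-, from raw counts of 107, 142, 75 and 72 in the same order. Both *Nef-sp* -/- libraries were below both controls, and the difference was the largest of the 8 genes, with a log2 fold change of -0.35 (standard error 0.161, 95% interval -0.71 to 0.01, unadjusted p = 0.0530 and adjusted p = 0.954 from edgeR). It did not pass the threshold. Without *Nef-sp* +/- replicate 1 the log2 fold change of *Ccrn4l* was -0.22, and without *Nef-sp* +/- replicate 2 it was -0.52. With all 4 libraries kept, the unadjusted p in edgeR fell below 0.05 with the library size over all categories (0.0381) and without an expression filter (0.0496). It stayed above 0.05 in edgeR with at least 10 counts required in every library (0.0529), and DESeq2 gave an unadjusted p of 0.181. The summed Leydig and peritubular markers were also lower in *Nef-sp* -/- (16105 to 18533 against 19396 to 19577, and 1236 to 1361 against 1388 to 1426 normalized counts). However, 5 of the 7 Leydig markers had a log2 fold change above 0, and that sum rests on *Cyp17a1* and *Cyp11a1*. Of the 4 peritubular markers tested, only *Acta2* did not overlap between genotypes. The median log2 fold change was 0.15 for the 6 elongating spermatid markers and -0.06 for the 6 round spermatid markers. The sums of both sets overlapped between genotypes. For elongating spermatids only *Nef-sp* +/- replicate 1 was low (420543 normalized counts), while *Nef-sp* +/- replicate 2 had 512656, against 505096 to 521973 in *Nef-sp* -/-. The part of these markers in the values of *Ccrn4l*, *Cnot6*, *Angel2* and *Cnot7* was not tested.

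**Figure D2:**
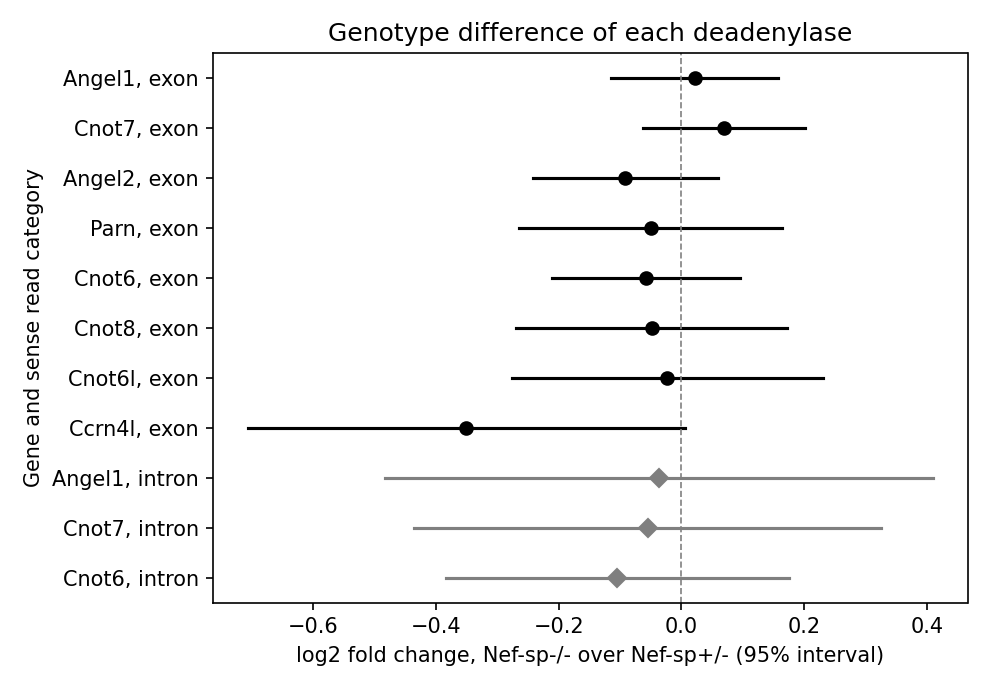
Log2 fold change between Nef-sp-/- and Nef-sp+/- (below 0 means lower in Nef-sp-/-) for exon sense reads of all 8 genes (circles) and intron sense reads of the 3 genes past the filter (diamonds), with 95% intervals from edgeR as lines; each genotype has 2 libraries. Every interval includes 0, and the lowest value is -0.35, for *Ccrn4l*.

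The balance within each pair was compared as the log2 ratio of normalized counts, without a test. These ratios reuse the counts of the single genes, and 34.5% of all single exon sense features tested did not overlap between genotypes. The ratio of *Cnot7* to *Cnot8* was 2.66 and 2.82 in the controls, against 2.85 and 2.89 in *Nef-sp* -/- on the log2 scale. It was higher in both *Nef-sp* -/- libraries, by 0.13 on average, with a standard deviation of 0.11 between the controls alone, and the difference was 0.048 without *Nef-sp* +/- replicate 1 and 0.20 without *Nef-sp* +/- replicate 2. Per length of exon, *Cnot7* had 2.87 to 3.35 times the level of *Cnot8* in the 4 libraries. In counts not corrected for length the ratio was 6.34 to 7.39. The same exon sense reads over the coding lengths, 855 and 876 bp, gave means of 125 and 17.5. As these lengths are nearly equal, those means follow the counts and are not a separate measure. The log2 ratio of *Angel1* to *Angel2* was 2.39 and 2.27 in the controls, against 2.43 and 2.45 in *Nef-sp* -/-, again higher in both *Nef-sp* -/- libraries, by 0.11 on average, with a standard deviation of 0.08 between the controls, and the difference was 0.055 without *Nef-sp* +/- replicate 2 and 0.17 without *Nef-sp* +/- replicate 1. Per length, *Angel1* was 6.05 to 6.85 times the level of *Angel2*. The log2 ratio of *Cnot6l* to *Cnot6* was -1.10 and -0.82 in the controls, against -1.10 and -0.72 in *Nef-sp* -/-, so the genotypes overlapped and replicates differed more than genotypes. With single libraries left out, this difference between genotypes ran from -0.14 to 0.24.

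Intron sense reads come largely from RNA that is not yet spliced, and 5 of the 8 genes are listed in that category, *Cnot6*, *Cnot6l*, *Cnot7*, *Angel1* and *Angel2*. *Cnot7* had 97.5 and 99.3 normalized intron counts in the controls, against 90.5 and 99.0 in *Nef-sp* -/-, and *Angel1* had 81.8 and 60.3 against 66.7 and 69.3. Genotypes overlapped in both, with log2 fold changes of -0.06 (95% interval -0.43 to 0.32) for *Cnot7* and -0.04 (95% interval -0.48 to 0.41) for *Angel1*. *Angel2* with 36 intron reads over the 4 libraries and *Cnot6l* with 5 did not pass the filter. Per library, intron reads were 4.21% to 4.86% of the sense reads of *Cnot7*, 1.35% to 1.83% of those of *Angel1*, and 0.794% to 1.47% of those of *Angel2*. In *Cnot6l*, whose introns span 83526 bp, they were at most 0.528% (95% Wilson interval 0.145 to 1.90, counting error only). Of the intron stretches of 50 bases, 1.32% in *Cnot7*, 0.877% in *Cnot6l* and 0.0893% in *Angel2* also occur in coding transcripts of other genes. In *Angel1* it was 0. Not every intron read of *Cnot7*, *Cnot6l* and *Angel2* can therefore be assigned to their unspliced RNA.

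Part of the intron sequence of *Cnot6* also occurs in transcripts of other genes. Its intron reads therefore cannot be assigned to unspliced *Cnot6* RNA, and their share is not compared with that of the other deadenylases. *Cnot6* had 767 and 765 normalized intron counts in the controls, against 717 and 708 in *Nef-sp* -/-, from raw counts of 684, 1040, 602 and 644 in the same order, and was lower in both *Nef-sp* -/- libraries. The log2 fold change was -0.10 (standard error 0.134, 95% interval -0.38 to 0.18, adjusted p = 0.9996 from edgeR over 3403 gene intron sense features, of which 0.0294% were called), and 28.0% of those features did not overlap between genotypes, 14.5% with *Nef-sp* -/- lower. None of the 3 deadenylases tested in this category was called, and 0 had an unadjusted p below 0.05 with edgeR or with DESeq2. In edgeR, 80 of the 3403 features had one.

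Antisense reads were rare. *Angel1* had 42 exon antisense reads over the 4 libraries against 17528 exon sense reads, and 24 intron antisense reads. *Parn* had 13 intron antisense reads, with 4 and 8 in the controls, against 1 and 0 in *Nef-sp* -/-. No deadenylase passed the expression filter in either antisense category, so none was tested. In the annotation, *Zdhhc2* overlaps 247 bp of *Cnot7* exons on the opposite strand, and no other annotated gene overlaps an exon of the 8 genes.

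The other genes that act on the poly(A) tail or on mRNA decay were taken as 7 lists with 73 genes, of which 59 were listed in the table and 55 passed the filter. None was called in either direction (0.00932% of all features). In edgeR, 4 of the 55 had an unadjusted p below 0.05, where 515 of the 10728 exon sense features tested had one. In DESeq2 it was 1 of the 55. Of the other deadenylases, 0 of 4 tested were called. *Pan3*, the adaptor of the PAN2-PAN3 deadenylase that starts tail shortening, was the most abundant with 4378 and 4317 normalized counts in the controls, against 4689.8 and 4529 in *Nef-sp* -/- (log2 fold change 0.08, adjusted p = 0.954). Its nuclease partner *Pan2* (listed as Usp52) had 546 and 523 in the controls, against 499 and 469.7 in *Nef-sp* -/- (log2 fold change -0.14, adjusted p = 0.954). Both partners had genotypes that did not overlap, in opposite directions, where 34.5% of all exon sense features tested did not overlap. Among the 55 genes of the 7 lists, 12 were lower and 9 higher in both *Nef-sp* -/- libraries. *Toe1*, a nuclear deadenylase of small RNAs, had a log2 fold change of 0.04 (adjusted p = 0.966).

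Of the CCR4-NOT subunits without nuclease activity, 0 of 6 tested were called, and their median log2 fold change was 0.03. *Cnot2*, *Cnot4* and *Cnot10* had the most reads, with log2 fold changes of 0.03, 0.04 and 0.07, and *Cnot11* (listed as D1Bwg0212e) and *Cnot3* had the smallest unadjusted p, 0.0969 and 0.165, with -0.16 and -0.25. Of the BTG/TOB adaptors, which tie the CCR4-NOT nucleases to their targets, 0 of 6 were called. *Btg3* had 502 and 546 normalized counts in the controls, against 586 and 607 in *Nef-sp* -/- (log2 fold change 0.18, unadjusted p = 0.0412 and adjusted p = 0.954 from edgeR), and all 710 of its coding stretches of 50 bases also occur in the predicted gene Gm7334, so its reads are uncertain. *Btg1* and *Tob1* had log2 fold changes of -0.07 and -0.03. Of the RNA-binding proteins that recruit deadenylases, 0 of 16 tested were called. *Samd4*, *Samd4b* and *Cpeb2* had the most reads. *Cpeb2*, a binder of cytoplasmic polyadenylation elements, had 3195 and 3398 in the controls, against 3099.6 and 2731 in *Nef-sp* -/- (log2 fold change -0.18, unadjusted p = 0.0303 and adjusted p = 0.954 from edgeR). *Samd4* and *Samd4b* had -0.02 each, and *Tnrc6c*, an adaptor of miRNA complexes, had -0.13 (adjusted p = 0.954).

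Of the poly(A) binding proteins and their regulators, 0 of 6 tested were called. *Pabpc1*, the main cytoplasmic poly(A) binding protein, had 23132 and 23043 normalized counts in the controls, against 21056 and 20450.0 in *Nef-sp* -/-. Both *Nef-sp* -/- libraries were below both controls, with a log2 fold change of -0.15 (standard error 0.0584, unadjusted p = 0.0237 and adjusted p = 0.954 from edgeR). The log2 fold changes of *Pabpc2*, *Pabpn1* and *Paip2* were -0.03, -0.04 and 0.10, and 438 of the 911 coding stretches of *Pabpn1* also occur in the predicted gene Gm20521. Of the poly(A) polymerases, which lengthen tails, 0 of 7 were called. *Papolb*, the testis form of the enzyme, had 21141 and 21599 in the controls, against 22611 and 21741 in *Nef-sp* -/- (log2 fold change 0.05, adjusted p = 0.956). *Papola*, *Tent5b* (listed as Fam46b) and *Papolg* had 0.04, 0.13 and 0.09. Of the decapping and 5′ decay genes, which act after the tail is gone, 0 of 10 were called. *Lsm1* had 292 and 265 in the controls, against 349.9 and 304 in *Nef-sp* -/- (log2 fold change 0.24, unadjusted p = 0.0415 and adjusted p = 0.954 from edgeR), while *Ddx6*, *Edc4*, *Dcp1b* and *Lsm14b* had -0.14, 0.02, 0.01 and -0.07.

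**Figure D3:**
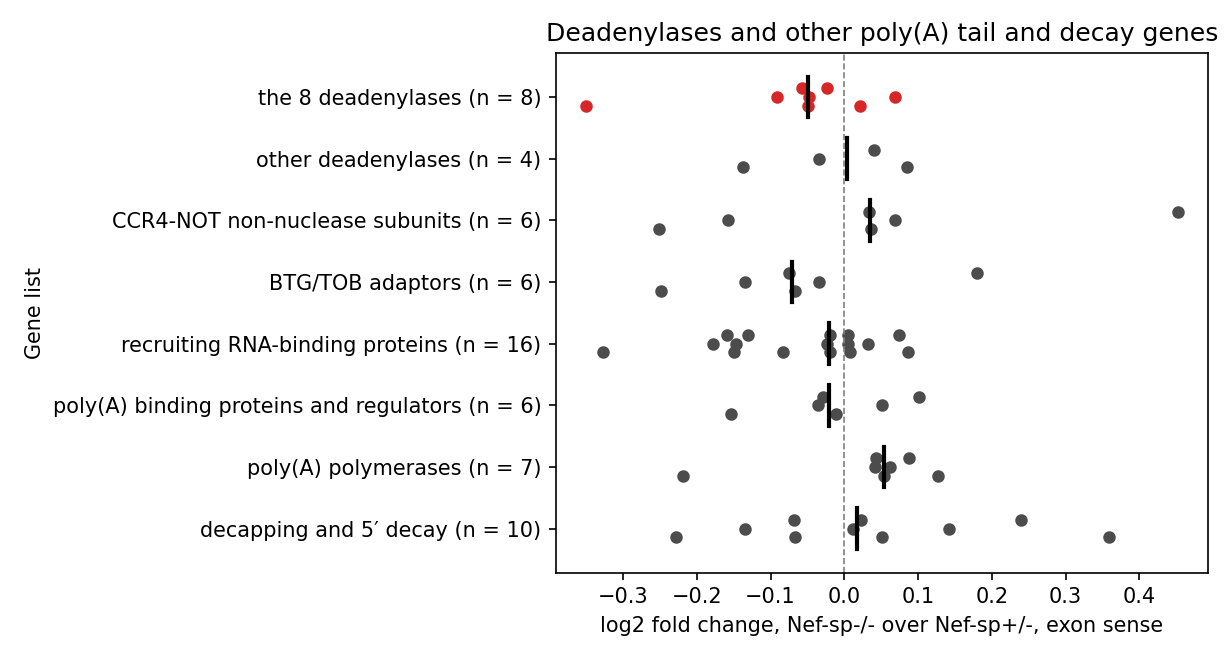
Log2 fold change between Nef-sp-/- and Nef-sp+/- for exon sense reads of each gene (points) in the 8 deadenylases (red) and 7 lists of related genes (dark grey), with the median of each list as a black bar; points are offset vertically only to be seen. List medians lie between -0.07 and 0.05, and no gene shown passed the threshold.

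Likeness between genes was measured as the Euclidean distance between log2 normalized counts, centered on each gene's mean over the 4 libraries, against the 62 other genes of these lists that passed the filter. The nearest gene to *Cnot7* was *Cnot10*, a CCR4-NOT subunit, at a distance of 0.0200 where the median distance of the 62 genes was 0.192. *Parn* was nearest to *Pabpn1*, at 0.0244, and *Cnot6* to *Pabpc2*, at 0.0337. The nearest gene to *Angel1* was *Mtpap* at 0.0415, to *Angel2* it was *Cnot6* at 0.0504, and to *Cnot8* it was *Lsm14b* at 0.0663. *Cnot6l* and *Ccrn4l* had no gene as near, with *Btg4* at 0.157 and *Zfp36l1* at 0.228. Their median distances to the 62 genes were also larger, at 0.324 and 0.465. Both genes varied more over the 4 libraries than the other deadenylases, and the distances were not scaled for this. With 4 libraries, these distances rest on few values and are given as a description.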

How the data were processed

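Total RNA of 4 testes samples was sequenced in strand-specific, ribosomal RNA-depleted libraries. After adapter removal the authors aligned reads to mm9 using tools of their own, retained only those matching perfectly, and deposited raw counts by feature, annotation category and strand. The deposited table also holds the authors' mean normalized signal and their own comparison by DESeq2, as log2 fold changes, p-values and adjusted p-values, which were not used. Tool versions are not given in the sources used here.

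The labels gave each library's genotype and replicate number. Each annotation category was fitted with the quasi-likelihood test of edgeR 4.0.16 in R 4.3.3, after TMM normalization, on features past its expression filter (minimum count 10), with Benjamini-Hochberg adjustment within the category and a threshold of 0.05. Standard errors and 95% intervals come from the log2 fold change, its F statistic and the test's degrees of freedom. The fit was also run on counts simulated with the same dispersion for all features, and no result here rests on that run. Replicates differed by more than counting noise (chi-square per degree of freedom 8.53 in *Nef-sp* +/- and 3.52 in *Nef-sp* -/-). Alternatives were other normalizations and filters, DESeq2 1.42.0, a block for replicate number, and omission of each library. The genes, lists and the rule for named genes (in each list the 3 with the highest mean count and the 2 with the smallest p) were chosen with earlier results of these data known. Symbols were matched through RefSeq synonyms (GRCm38.p6, names only), and genes of the lists that found no match were not analysed here. Gene models, coding sequences and stretches of 50 bases are from GENCODE vM1 on mm9. A further sequence comparison for *Cnot6* introns is not reported here. Figures were drawn with matplotlib 3.10.9.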

Additional observations from a re-analysis of the deposited data

How the results depend on the processing

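No deadenylase was called under any alternative tried, among 113 values for the 8 exon and 3 intron features, of which 105 kept their direction and none had an adjusted p below 0.284. With single libraries omitted, log2 fold changes ran from -0.17 to 0.12 for *Cnot6l*, -0.15 to 0.033 for *Cnot8*, -0.14 to 0.080 for *Parn*, -0.024 to 0.068 for *Angel1*, -0.52 to -0.22 for *Ccrn4l*, and -0.28 to 0.16 for *Angel1* introns, so that the direction of each of these except *Ccrn4l* rests on single libraries. *Cnot6* (-0.099 to -0.015), *Angel2* (-0.14 to -0.045), *Cnot7* (0.043 to 0.098) and *Cnot7* introns (-0.12 to -0.0043) kept their direction but moved by over 1.5 times. With the library size over all categories, *Angel1* had -0.0029. The number of gene exon sense features called was 1 in the fit reported and 2 with DESeq2. It ran from 1 to 252 when a library was left out, with 41 without *Nef-sp* +/- replicate 1 and 252 without *Nef-sp* +/- replicate 2, and the cause was not tested. The 1 intron sense call was lost, leaving 0, with the library size over all categories, without an expression filter and with DESeq2, and ran from 1 to 1 when a library was left out. Exon antisense and intron antisense calls ran from 0 to 3 in each category, with 3 without *Nef-sp* +/- replicate 2.

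With the replicate number as a block, 1 exon sense and 1 intron sense feature was called, as without it, and no deadenylase. Libraries with the same number had deviations correlated at -0.08 across exon sense features and -0.14 across intron sense features, so the numbers were not taken as pairs. With the replicate block crossed, chosen after seeing the data, 2 intron sense features and 0 intron antisense features were called. The same exon sense reads were divided by coding length, also chosen after seeing the data. The highest level was then 30.4 times the lowest, where it was 107 times per kilobase of exon. Depth limits *Ccrn4l* most, with 72 to 142 reads per library.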
